A study of Lactuca sativa with 9 samples.

Results

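The genes described here are those that the gene table of lettuce leaves places in the KEGG pathway of phenylpropanoid biosynthesis, the route from phenylalanine to the monomers of lignin. The rule took every table row whose KEGG entry names that pathway and names neither flavonoid, flavone nor anthocyanin synthesis, and whose description contains neither the word chalcone nor a word such as anthocyanin or anthocyanidin. It found 331 of the 35342 rows. Of these, 184 were measured, which means a mean of at least 0.5 FPKM (fragments mapped to a gene, scaled to its transcript length and to the mapped fragments of the library) over all libraries, and tests were run on these. All plants were lettuce of the cultivar Hong Kong Glass, and their leaves were harvested 24 days after emergence. They had grown at 60 (Las_WL, low light), 175 (Las_ML, medium light) or 340 (Las_SL, high light) µmol of photons per square metre per second, with 3 libraries per group. Parts of the study's text give the intensities of Las_SL and Las_WL the other way round, and the groups are used here as the sample labels give them. The samples were cut and mixed leaf tissue, so a change of a gene within a cell type and a change in the share of that cell type cannot be told apart.

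Plants make phenylpropanoids from phenylalanine. Phenylalanine ammonia-lyase (PAL) removes the amino group, cinnamate 4-hydroxylase (C4H) adds a hydroxyl group, and 4-coumarate-CoA ligase (4CL) activates the product, which then feeds lignin, flavonoids, sinapate esters and other phenolics. On the lignin branch, shikimate ester steps and methyl transfers decorate the ring, ferulate 5-hydroxylase (F5H) leads to the syringyl type, and cinnamoyl-CoA reductase (CCR) and cinnamyl alcohol dehydrogenase (CAD) make the alcohols. Class III peroxidases and laccases oxidise these alcohols in the cell wall, while beta-glucosidases can release them from stored glucosides.

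The genes were divided by the KEGG orthology number of the table and by whether its description or gene ontology terms name the enzyme or its protein family. A word for the family, such as glucosyltransferase, cytochrome P450 or carboxypeptidase, was enough. The substrate in a class name may therefore rest on the number alone. The core pathway held 113 genes (78 measured), the class III peroxidases 61 (23 measured) and the beta-glucosidases 27 (20 measured). The 2 peroxiredoxins, thiol enzymes that only share the word peroxidase, were both measured. A further 128 rows (61 measured) made up the rest. They carried a number of the pathway without any word for the enzyme, carried another number beside it, or were tRNA genes (9, of which 0 measured). In 96 of the 128 rows the number was that of a beta-glucosidase, and in 25 that of a peroxidase. The descriptions of such rows name, for example, Argonaute proteins, phosphate translocators and Rac GTPases, so their membership in the pathway rests on the number alone and they are described apart. The rule also left out 73 rows of the pathway that KEGG shares with flavonoid synthesis, among them both C4H rows and all 53 hydroxycinnamoyltransferase (HCT) rows. The others were 4 rows of the shikimate ester hydroxylase (C3'H) and 14 of caffeoyl-CoA O-methyltransferase. The core as described here therefore lacks C4H, HCT, C3'H and caffeoyl-CoA O-methyltransferase. Of the shikimate ester steps it keeps caffeoylshikimate esterase. Among its classes were 5 PAL genes (4 measured), 13 of the 4CL family (8), 4 caffeoylshikimate esterases (4), 17 of the CCR family (15), 17 of the CAD family (13), 2 F5H genes (2), 4 coniferyl aldehyde dehydrogenases (3), 4 coniferyl alcohol glucosyltransferases (2), 3 sinapate glucosyltransferases (3) and 38 serine carboxypeptidase-like (SCPL) acyltransferases (20).

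Las_WL library 1 stood apart. Its median correlation with the other libraries over all measured genes was 0.83, against 0.908 to 0.953 for the others, of which Las_SL library 2 was lowest. Dividing-cell markers moved with this. Summed over 48 core histone genes (43 measured), FPKM was 7703, 585.5 and 507.2 in the Las_WL libraries, 632.5, 1521 and 1735 in Las_ML and 2220, 598 and 1305 in Las_SL, and the A- and B-type cyclins (14 genes, 12 measured) ran from 1.66 to 278 in Las_WL, from 5.96 to 54.4 in Las_ML and from 1.26 to 63.8 in Las_SL. The 36 chlorophyll a/b-binding protein genes of the mesophyll (33 measured) summed to 11747 to 29530 FPKM in Las_WL, 14657 to 25774 in Las_ML and 13412 to 17468 in Las_SL. The 46 phloem protein 2 genes (21 measured) summed to 52.3, 77.9 and 85.1 FPKM in Las_WL, 100, 88 and 96.6 in Las_ML and 97.3, 109 and 105 in Las_SL. The 2 sieve element occlusion genes (both measured), also phloem markers, summed to 11.2, 8.69 and 4.45 FPKM in Las_WL, 9.37, 7.13 and 11 in Las_ML and 8.82, 6.66 and 7.72 in Las_SL. No row was described as a xylem cysteine proteinase, so the lignifying cells could not be followed by that marker. Of the measured members, 36 (19.6%) had their highest value in Las_WL library 1 and their lowest in Las_SL library 2, against 11.2% of all measured genes. This pattern was seen in 10 of 78 core genes (12.8%), 2 of 23 peroxidases (8.7%), 5 of 20 beta-glucosidases (25%) and 18 of the 61 rows placed by number alone (29.5%). The reverse, lowest in Las_WL library 1 and highest in Las_SL library 2, was seen in 27 members (14.7%), against 13.6% of all measured genes. These were 15 core genes (19.2%), 3 peroxidases (13%), 1 beta-glucosidase (5%) and 8 rows placed by number alone (13.1%), and the called genes LOC111904547 and LOC111877184, described below, were among them. The part of tissue composition in the differences below was not tested.

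In the Las_SL vs. Las_WL comparison, 4 members were called higher and 1 lower, where a call means that the limma adjusted p was below 0.05 and that the log2 fold change was 1 or more in size. Of all 26145 tested genes, 2.73% were called higher and 0.199% lower, so the members' counts among 184 were near the background. Those called higher were a CCR-family gene, a gene with a sinapate glucosyltransferase number, an aldehyde dehydrogenase and a glucosidase-family gene. They had 3.2 to 4.35 times the mean FPKM of Las_WL. At an adjusted p below 0.05 with no limit on the fold change, 9 members were higher and 1 lower (5.67% and 0.264% of all genes). The groups did not overlap for 42 members with Las_SL above and 12 with Las_SL below, where the shares of all genes were 27.2% and 2.89%. The members' median log2 fold change was 0.04, beside 0.18 for all genes tested, and quantile normalization moved the median of all genes to -0.01.

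In the Las_SL vs. Las_ML comparison no member was called in either direction by limma (0.00382% of all genes higher and 0 lower). At an unadjusted p below 0.05 and the same fold limit, 3 members were higher and 5 lower (0.891% and 0.535% of all genes). In Las_WL vs. Las_ML no member was called either, with 0 calls among all genes in both directions. At the unadjusted p, 2 members were higher in Las_WL and 9 lower (0.229% and 2.04% of all genes). The 3 comparisons share their libraries, and for the 4 genes called higher in Las_SL vs. Las_WL the mean of Las_ML lay between those of the other groups.

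**Figure D1:**
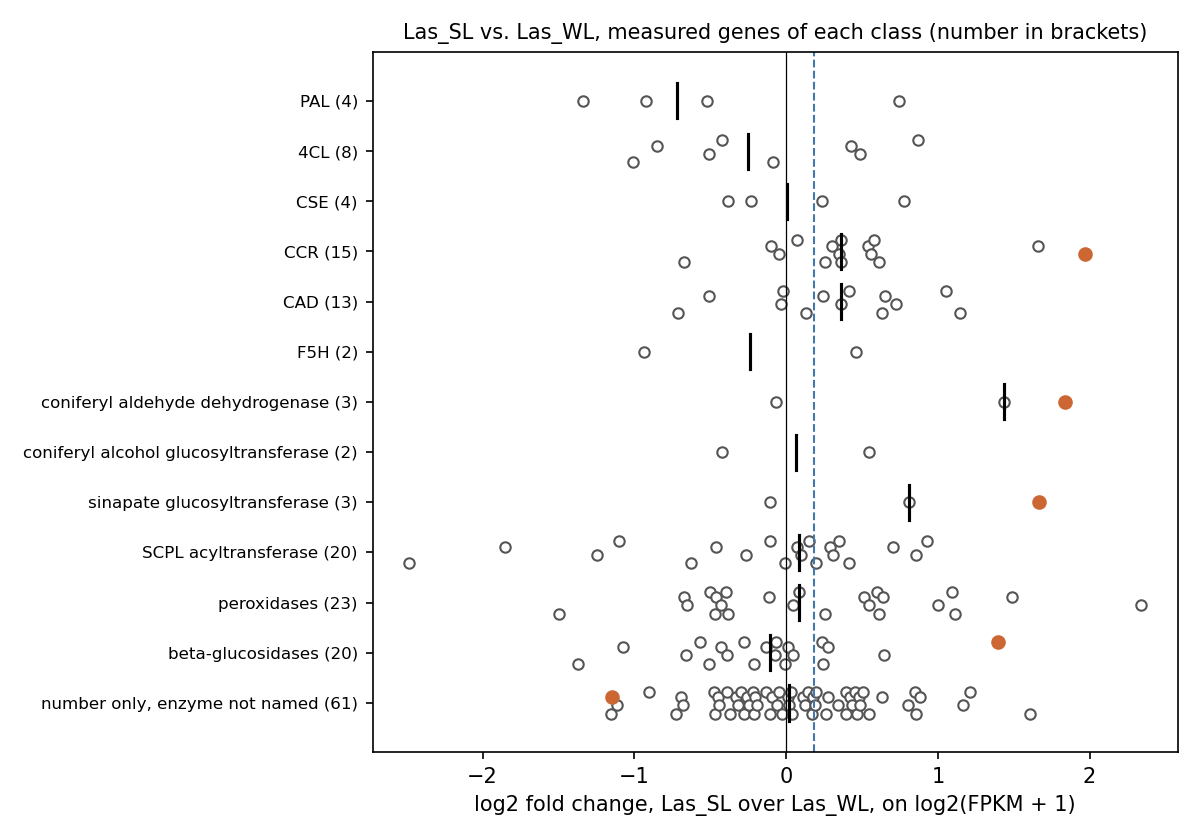
Each circle is a measured gene, placed by its log2 fold change of Las_SL over Las_WL on log2(FPKM + 1) and by its class. Filled circles are the 5 called genes, black bars are class medians and the dashed line is the median of all genes tested (0.18); the 2 peroxiredoxins and 1 core class are not drawn. PAL genes lie mostly to the left, with a median of -0.72, and aldehyde dehydrogenases to the right, with a median of 1.44.

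PAL, the entry enzyme, had the highest summed FPKM of the core classes in Las_WL and Las_ML, and 3 of its 4 measured genes had a lower mean in Las_SL than in Las_WL, though none was called. LOC111893052, described as a lettuce PAL, held 79.8% of the summed PAL FPKM and 27% of that of the whole core. It reached 406.5, 951 and 1089 FPKM in the Las_WL libraries, 366, 365 and 554.5 in Las_ML and 313, 264 and 313 in Las_SL. Every Las_SL library lay below every library of both other groups, and Las_WL library 1, the library that stood apart, lay within the range of Las_ML. The gene averaged 296 ± 28.4 FPKM in Las_SL, against 815.5 ± 361 in Las_WL (SD, n = 3 each), a log2 fold change of -1.34 ± 0.38 (SE; limma adjusted p = 0.0731). Without Las_WL library 1 it was -1.78, with a limma adjusted p of 0.014, and over all alternatives the adjusted p ran from 0.014 to 0.26. In Las_SL vs. Las_ML the log2 fold change was -0.51 ± 0.38 (limma adjusted p = 0.992), and in Las_WL vs. Las_ML 0.83 ± 0.38 (limma adjusted p = 0.393).

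The other PAL genes did not all share this order. LOC111916377 had 115, 68.9 and 160 FPKM in Las_WL, 60.8, 37 and 91.7 in Las_ML and 58, 59.1 and 53.3 in Las_SL. Its Las_SL libraries agreed closely and lay below all Las_WL libraries, with a log2 fold change of -0.92 ± 0.38 (limma adjusted p = 0.167). LOC111916376 had 30.5, 26.9 and 24.7 FPKM in Las_WL, 12.4, 10.3 and 20.1 in Las_ML and 12.7, 24.9 and 20.6 in Las_SL, so its lowest group was Las_ML. LOC111894107 was placed the other way, with 20.5, 15.9 and 33.3 FPKM in Las_WL, 44.2, 21.1 and 30.4 in Las_ML and 34.3, 52.5 and 29.8 in Las_SL, and its groups overlapped (log2 fold change of Las_SL over Las_WL 0.74 ± 0.36, limma adjusted p = 0.233). In the RefSeq gene order of assembly Lsat_Salinas_v11 these 4 genes form 2 pairs of neighbouring protein-coding genes. LOC111893052 lies beside LOC111894107, whose fold change had the opposite sign, and LOC111916377 beside LOC111916376. Summed over all 5 genes, PAL reached 573, 1063 and 1306 FPKM in Las_WL, 483, 433 and 697 in Las_ML and 418, 400.1 and 417 in Las_SL, so the Las_SL libraries differed least among themselves. In Las_SL, PAL and the CCR family were close in summed FPKM, at 411.5 ± 9.84 for PAL and 409 ± 20.7 for CCR (SD, n = 3 each).

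C4H, the next enzyme after PAL, falls outside the rule because KEGG lists it under flavonoid synthesis too. Its genes were chosen after their values were seen. LOC111876528 had 155, 74.9 and 235 FPKM in Las_WL, 62.1, 67.1 and 101 in Las_ML and 65.7, 43.1 and 58.3 in Las_SL. LOC111886666 had 80.3, 50.5 and 155 FPKM in Las_WL, 43.6, 27 and 43.6 in Las_ML and 39.3, 10.1 and 24.5 in Las_SL. For both genes all Las_SL libraries lay below all Las_WL libraries, with log2 fold changes of -1.33 ± 0.41 and -1.95 ± 0.54 and limma adjusted p-values of 0.0843 and 0.0667, so neither was called.

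**Figure D2:**
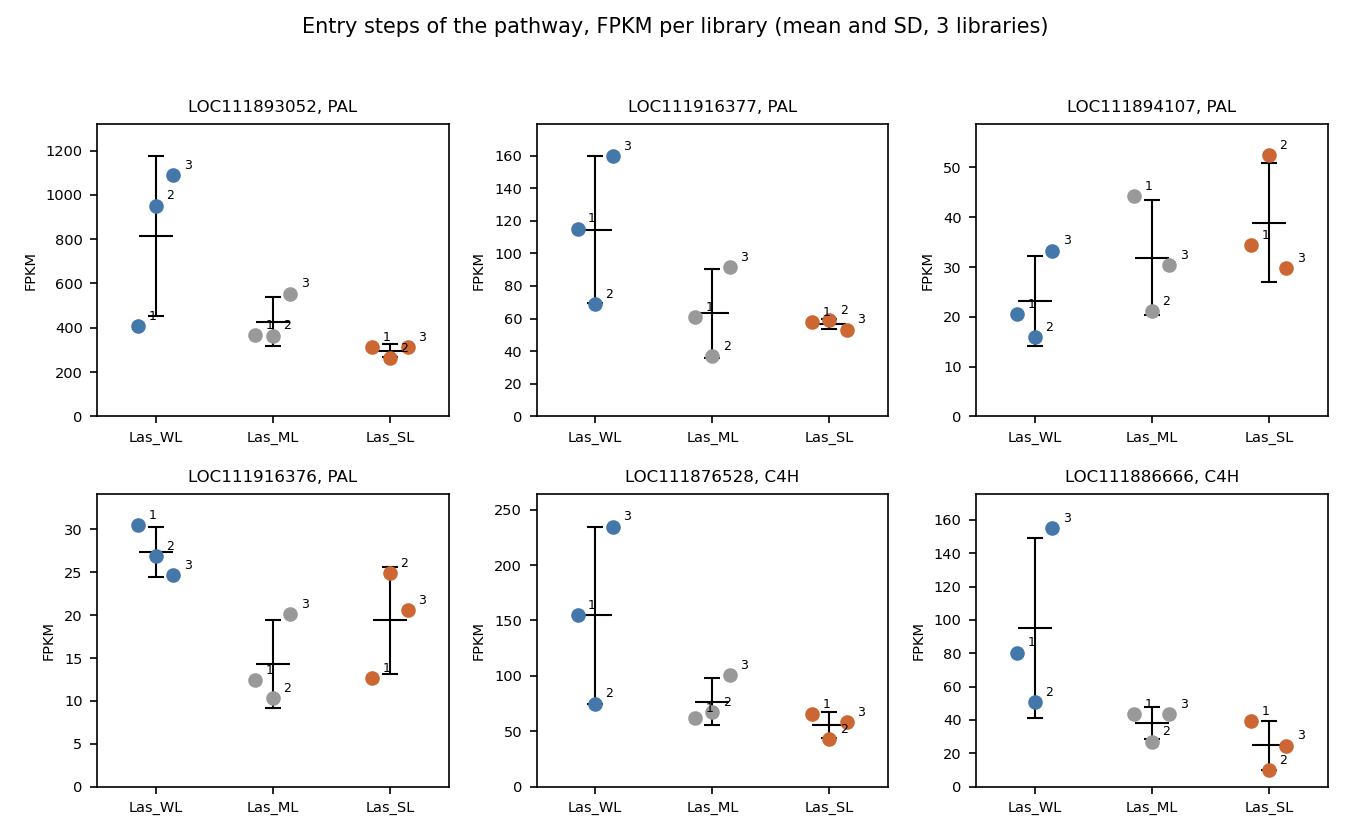
Points are FPKM of each library (numbered by replicate) of the 4 measured PAL genes and the 2 C4H genes in Las_WL, Las_ML and Las_SL; black bars are the mean and SD of 3 libraries. LOC111893052 has a mean of 296 FPKM in Las_SL, against 815.5 in Las_WL, while the PAL gene LOC111894107 lies higher in Las_SL with overlapping groups.

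The 4CL family, which couples the acids to coenzyme A, was split. Its most abundant gene, LOC111892323, had 39, 50.6 and 65 FPKM in Las_WL, 36.7, 38.2 and 37.5 in Las_ML and 40.5, 28.3 and 38.1 in Las_SL, with groups that overlapped (log2 fold change of Las_SL over Las_WL -0.51 ± 0.21, limma adjusted p = 0.177). LOC111914848, described as 4-coumarate: coenzyme A ligase, had 17.9, 17.9 and 14.5 FPKM in Las_SL, against 34.9, 22.5 and 37.6 in Las_WL, which do not overlap (log2 fold change -0.85 ± 0.24, limma adjusted p = 0.0724). LOC111893021, described as 4-coumarate-CoA ligase-like 7, had 23.2, 30.8 and 29.6 FPKM in Las_SL, against 15.1, 13.7 and 15.4 in Las_WL. That gene passed the adjusted p but not the fold limit (log2 fold change 0.87 ± 0.15, limma adjusted p = 0.0294). These last 2 genes were chosen after their values were seen. Summed 4CL FPKM was 118, 120 and 167 in Las_WL, 115, 114 and 123 in Las_ML and 124, 122 and 123 in Las_SL.

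None of the genes of 2 middle steps was called. Caffeoylshikimate esterase, which frees caffeate from its shikimate ester, was led by LOC111910235, at 33.6, 35.7 and 45.1 FPKM in Las_WL, 31.6, 25.9 and 27.3 in Las_ML and 34.1, 31 and 31.1 in Las_SL. F5H was led by LOC111895133, which varied within groups more than between them, at 5.01, 11.9 and 9.35 FPKM in Las_WL, 8.21, 4.2 and 10.4 in Las_ML and 4.94, 18.7 and 17 in Las_SL. The log2 fold changes of Las_SL over Las_WL were -0.23 ± 0.16 for LOC111910235 and 0.46 ± 0.52 for LOC111895133 (limma adjusted p = 0.404 and 0.654). Two-way values were seen in both classes, and the next genes were chosen after their values were seen. The other F5H gene, LOC111897462, averaged 5.79 FPKM in Las_SL and 12.2 in Las_WL (log2 fold change -0.94 ± 0.32, limma adjusted p = 0.108). The esterase LOC111910234 averaged 21.25 FPKM in Las_SL and 12.1 in Las_WL, without overlap (log2 fold change 0.78 ± 0.22, limma adjusted p = 0.074).

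The CCR family, whose founding members reduce hydroxycinnamoyl-CoA esters to aldehydes, had 7 of 15 measured genes with all Las_SL libraries above all Las_WL libraries and 0 the other way. That share is read beside the 27.2% of all genes given above. LOC111904547 of this family was called. It had 2, 4.19 and 6.32 FPKM in Las_WL, 14.8, 11.9 and 11.7 in Las_ML and 15, 21.7 and 17.8 in Las_SL. The 3 groups did not overlap, and Las_WL library 1 was lowest of all. It averaged 18.2 ± 3.39 FPKM in Las_SL, against 4.17 ± 2.16 in Las_WL (SD, n = 3 each), with a log2 fold change of 1.97 ± 0.31 (limma adjusted p = 0.0261). Against Las_ML, the log2 fold change of Las_SL was 0.46 ± 0.31 (limma adjusted p = 0.977) and that of Las_WL was -1.5 ± 0.31 (limma adjusted p = 0.15). The table describes this gene only as an NAD-dependent epimerase or dehydratase, a family that holds enzymes other than CCR, and its substrate is not known from the files.

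The most abundant CCR-family gene, LOC111894093, had 33.9, 99.3 and 96.4 FPKM in Las_WL, 87.9, 115 and 99.1 in Las_ML and 93.9, 86.3 and 86.6 in Las_SL. Without Las_WL library 1 its log2 fold change of Las_SL over Las_WL turned to -0.14, against 0.36 with it, and it was not called in either case. LOC111889349, described as cinnamoyl-CoA reductase 2-like and chosen after its values were seen, had 38.8, 44 and 39 FPKM in Las_SL, against 26.4, 28.3 and 26.8 in Las_WL. The libraries within each group agreed closely for this gene, and its log2 fold change of 0.56 ± 0.12 passed the adjusted p but not the fold limit (limma adjusted p = 0.0401).

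CAD, which makes the monolignols from the aldehydes, had 4 of 13 measured genes with Las_SL above Las_WL without overlap and 0 the other way, beside 27.2% and 2.89% of all genes, and none was called. Its most abundant gene, LOC111888377, had 61.7, 18.6 and 44.4 FPKM in Las_SL, against 76.6, 55.7 and 54.9 in Las_WL, and the groups overlapped (log2 fold change -0.71 ± 0.41, limma adjusted p = 0.316). LOC111913318, at 5.05, 4.74 and 3.75 FPKM in Las_SL, against 2.29, 2.22 and 2.45 in Las_WL, and LOC111878515, at 2.21, 2.18 and 2.01 FPKM in Las_SL, against 0.823, 1.09 and 1.09 in Las_WL, passed the adjusted p with log2 fold changes of 0.73 ± 0.15 and 0.65 ± 0.13 (limma adjusted p = 0.0397 and 0.0375). Both were low in level and were chosen after their values were seen. Summed over the class, CAD overlapped between all groups, with 212, 218.5 and 192 FPKM in Las_WL, 171, 205 and 232 in Las_ML and 210.2, 225 and 202 in Las_SL.

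Coniferyl aldehyde dehydrogenases, which oxidise coniferyl and sinapyl aldehydes to ferulate and sinapate in Arabidopsis, had higher means in Las_SL than in Las_WL for the 2 abundant genes of the class, of which 1 was called. LOC111897919 had 16.6, 13 and 33.9 FPKM in Las_WL, 41.8, 28.7 and 33.8 in Las_ML and 43.1, 112 and 77.4 in Las_SL. All Las_SL libraries lay above the rest, and Las_SL library 2, the other library with a low correlation, was highest. It was called, with 77.4 ± 34.3 FPKM in Las_SL, against 21.2 ± 11.2 in Las_WL (SD, n = 3 each) and a log2 fold change of 1.84 ± 0.42 (limma adjusted p = 0.0448). Without Las_SL library 2 the log2 fold change was 1.52 (limma adjusted p = 0.154), and over the alternatives the adjusted p ran from 0.0339 to 0.158. Against Las_ML the log2 fold change of Las_SL was 1.05 ± 0.42 (limma adjusted p = 0.88) and that of Las_WL was -0.79 ± 0.42 (limma adjusted p = 0.466).

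LOC111904175, described as aldehyde dehydrogenase family 2 member C4-like, had 13.7, 39.9 and 59.2 FPKM in Las_WL, 66.7, 64.2 and 57.9 in Las_ML and 81.9, 102 and 83.1 in Las_SL. Las_SL again lay above both other groups, and Las_WL library 1 was lowest. Its log2 fold change of Las_SL over Las_WL was 1.44 ± 0.45 (limma adjusted p = 0.0902), which is not a call. Summed over the 4 genes of the class, FPKM was 32.2, 53.8 and 94.4 in Las_WL, 110, 94.4 and 93.1 in Las_ML and 126, 214 and 162 in Las_SL.

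Sinapate glucosyltransferase makes sinapoylglucose, the donor of sinapate esters. LOC111877184 was the most abundant of the 3 genes with its number. It had 2.17, 4.53 and 8.81 FPKM in Las_WL, 13.2, 10.8 and 10.2 in Las_ML and 14, 19.2 and 17.1 in Las_SL. The 3 groups did not overlap. It was called, at 16.8 ± 2.61 FPKM in Las_SL, against 5.17 ± 3.37 in Las_WL (SD, n = 3 each), with a log2 fold change of 1.67 ± 0.37 (limma adjusted p = 0.0412). Against Las_ML the log2 fold change of Las_SL was 0.52 ± 0.37 (limma adjusted p = 0.985) and that of Las_WL was -1.15 ± 0.37 (limma adjusted p = 0.242). The coniferyl alcohol glucosyltransferases, which store the alcohol as coniferin, were led by LOC111891086, at 39.7, 54.2 and 40.9 FPKM in Las_SL, against 10 in Las_WL library 1 and 53.7 and 49.3 in the other Las_WL libraries. Its groups overlapped, and without Las_WL library 1 the log2 fold change turned to -0.21, against 0.54 with it.

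**Figure D3:**
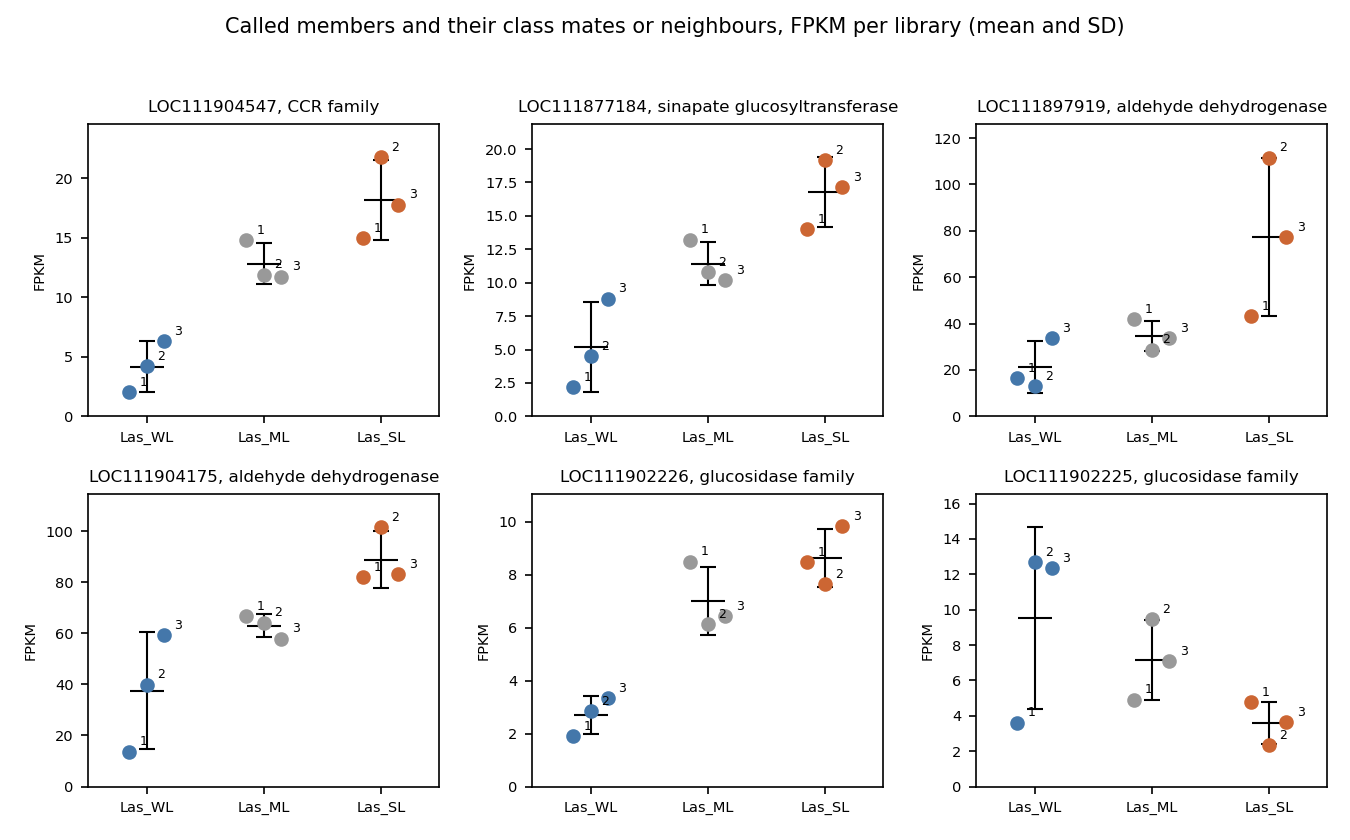
Points are FPKM of each library (numbered by replicate) in Las_WL, Las_ML and Las_SL for the 4 members called higher in Las_SL vs. Las_WL, for the aldehyde dehydrogenase LOC111904175 and for LOC111902225, the neighbour of LOC111902226; black bars are the mean and SD of 3 libraries. All 4 called genes lie lowest in Las_WL, and LOC111902225 is placed the other way, with means of 3.6 FPKM in Las_SL and 9.55 in Las_WL.

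The SCPL acyltransferases, relatives of peptidases that move sinapate from its glucose ester to malate or choline in Arabidopsis, held both directions. Of 20 measured genes, 5 had Las_SL above Las_WL without overlap and 3 had it below, beside the same 27.2% and 2.89% of all genes, and none was called. The most abundant, LOC111920700, was nearly level, at 61.9, 68.3 and 88.9 FPKM in Las_WL, 73.2, 64.6 and 66.4 in Las_ML and 70.9, 65.1 and 64.9 in Las_SL. The genes named next were chosen after their values were seen. LOC111900976 had 16.8, 7.67 and 18.1 FPKM in Las_WL, 4.98, 4.86 and 5.53 in Las_ML and 6.26, 3.99 and 5.14 in Las_SL, so that Las_WL lay above both other groups (log2 fold change of Las_SL over Las_WL -1.25 ± 0.3, limma adjusted p = 0.051). Its neighbour LOC111900974 had 61.1, 26.9 and 36.4 FPKM in Las_WL, 14.4, 23.2 and 34.8 in Las_ML and 28, 10.3 and 19 in Las_SL, with overlapping groups. LOC111919870 had 16.1, 2.4 and 13.4 FPKM in Las_SL, against 48.7, 26.4 and 27.7 in Las_WL (log2 fold change -1.85 ± 0.61, limma adjusted p = 0.101). LOC111892091 had 0.42, 0.035 and 0.45 FPKM in Las_SL, against 14.9, 1.21 and 9.59 in Las_WL, the most negative core value (log2 fold change -2.48 ± 0.65, limma adjusted p = 0.0596). In 3 of these 4 genes Las_WL library 1 was the highest of all libraries, and in all 4 Las_SL library 2 was the lowest. LOC111920702, at 12.4, 15.2 and 13.4 FPKM in Las_SL, against 7.27, 7.14 and 9.77 in Las_WL, went the other way (log2 fold change 0.7 ± 0.16, limma adjusted p = 0.0447) and passed the adjusted p but not the fold limit.

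**Figure D4:**
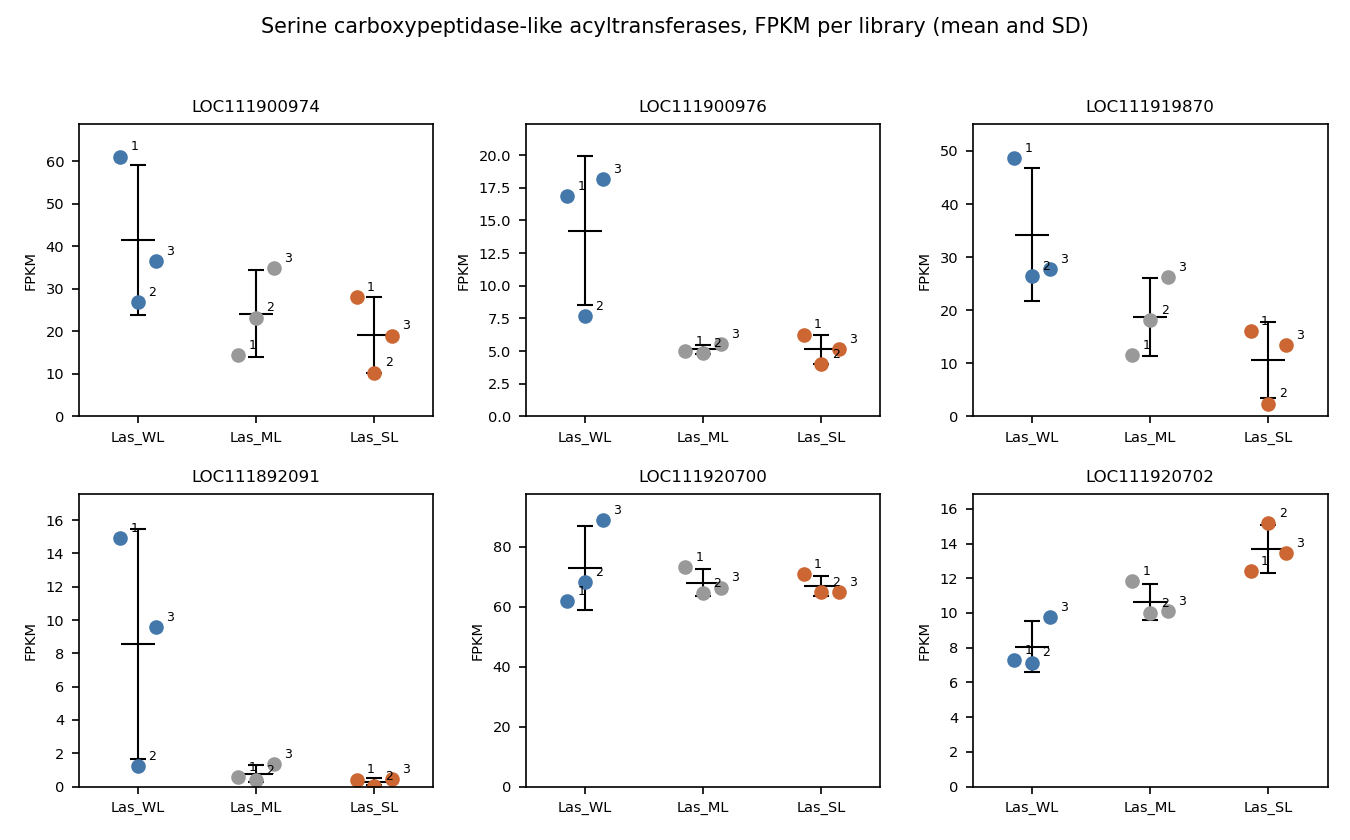
Points are FPKM of each library (numbered by replicate) of 6 serine carboxypeptidase-like acyltransferase genes in Las_WL, Las_ML and Las_SL; black bars are the mean and SD of 3 libraries. LOC111900974, LOC111900976, LOC111919870 and LOC111892091 have their highest group mean in Las_WL, LOC111920702 has it in Las_SL and LOC111920700 is nearly level.

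Class III peroxidases, heme enzymes that oxidise monolignols among many other substrates, were dominated by LOC111891035. It reached 348, 863 and 1131 FPKM in Las_WL, 2462, 1397 and 1544 in Las_ML and 1948, 1958 and 1960 in Las_SL. The Las_SL libraries were almost equal, all Las_WL libraries lay below the rest, and Las_WL library 1 was lowest. It averaged 1955 ± 6.39 FPKM in Las_SL, against 780.4 ± 398 in Las_WL (SD, n = 3 each), with a log2 fold change of 1.49 ± 0.46 that was not called (limma adjusted p = 0.0884; 0.0496 to 0.232 over the alternatives). Against Las_ML the log2 fold change of Las_SL was 0.16 ± 0.46 (limma adjusted p = 1) and that of Las_WL was -1.32 ± 0.46 (limma adjusted p = 0.269). This gene held 65.3% to 90.2% of the summed peroxidase FPKM of each library, so the class sum followed it, at 533, 1110 and 1409 FPKM in Las_WL, 2731, 1714 and 1859 in Las_ML and 2159, 2235 and 2222 in Las_SL. The sum of the other peroxidases was 185, 247 and 278 in Las_WL, 270, 317 and 315 in Las_ML and 211, 277 and 262.5 in Las_SL, where the groups Las_SL and Las_WL overlapped.

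None of the 23 measured peroxidases was called by limma in a comparison, while 3 were higher and 0 lower in Las_SL vs. Las_WL at an unadjusted p below 0.05 and the same fold limit (5.47% and 0.807% of all genes). LOC111893069 had 47.6, 57.8 and 47 FPKM in Las_SL, against 19.1, 28 and 66.8 in Las_WL, and LOC111896402 had 26.5, 42.9 and 32.5 in Las_SL, against 19.1, 57.8 and 27.7 in Las_WL. Las_WL spanned Las_SL in both. The largest fold change belonged to LOC111902773, a heme peroxidase chosen after its values were seen, with 3.46, 37.1 and 8.07 FPKM in Las_SL, against 0.42, 1.76 and 2.03 in Las_WL (log2 fold change 2.34 ± 0.71, limma adjusted p = 0.085). Las_SL library 2 was far above the other Las_SL libraries, and without it the log2 fold change was 1.48 (limma adjusted p = 0.176; 0.0618 to 0.253 over the alternatives). Some members of a class stood side by side, though no share of other genes was taken for comparison. The RefSeq order held 303 of 329 member loci, and 77 members stood in 31 runs of neighbouring protein-coding genes of the same class. Rows placed by number alone are counted too. Of the 77, 19 were peroxidases, 18 SCPL acyltransferases, 9 CAD, 9 CCR and 4 PAL genes.

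**Figure D5:**
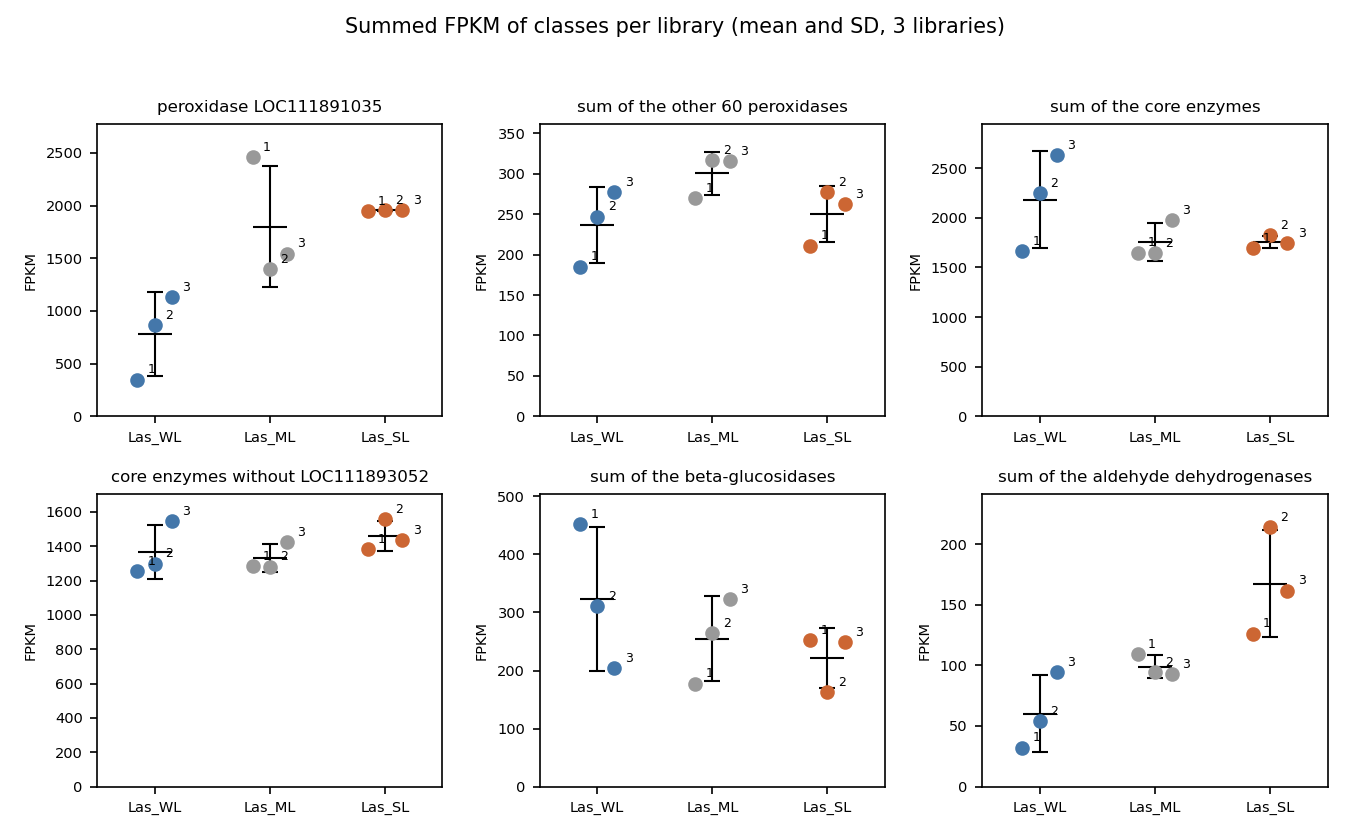
Points are FPKM of each library (numbered by replicate) in Las_WL, Las_ML and Las_SL for the peroxidase LOC111891035 and for the sums of the other 60 peroxidases, the core with and without the PAL gene LOC111893052, the beta-glucosidases and the aldehyde dehydrogenases; black bars are the mean and SD of 3 libraries. LOC111891035 averages 1955 FPKM in Las_SL and 780.4 in Las_WL, while the sums of the other peroxidases overlap between these groups.

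Beta-glucosidases cleave glucose from phenolic and other glucosides. Of 20 measured, 1 was called higher and 0 lower in Las_SL vs. Las_WL, beside 2.73% and 0.199% of all genes. LOC111902226 had 1.9, 2.85 and 3.35 FPKM in Las_WL, 8.5, 6.12 and 6.45 in Las_ML and 8.47, 7.65 and 9.83 in Las_SL. Las_WL lay below both other groups, which overlapped. It averaged 8.65 ± 1.1 FPKM in Las_SL, against 2.7 ± 0.73 in Las_WL (SD, n = 3 each), with a log2 fold change of 1.4 ± 0.2 (limma adjusted p = 0.0247). Against Las_ML the log2 fold change of Las_SL was 0.27 ± 0.2 (limma adjusted p = 0.987) and that of Las_WL was -1.13 ± 0.2 (limma adjusted p = 0.13). The table carries a beta-glucosidase number for this gene but describes it as an acyl-glucose-dependent cyanidin glucosyltransferase, a kind of glycoside hydrolase family protein that adds glucose to anthocyanins in other plants, so its place in lignin synthesis rests on that number. Its neighbour LOC111902225, described as beta-glucosidase 11 and chosen after its values were seen, had 4.77, 2.36 and 3.65 FPKM in Las_SL, against 3.61, 12.7 and 12.3 in Las_WL. Las_SL overlapped with Las_WL library 1 only. The log2 fold change was -1.07 ± 0.44 (limma adjusted p = 0.169), and without Las_WL library 1 it was -1.59 (limma adjusted p = 0.0193; 0.0193 to 0.42 over the alternatives).

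The 3 most abundant beta-glucosidases did not differ beyond their spread. The row that joins LOC111915120 and LOC111915136 had 190, 115 and 32.6 FPKM in Las_WL, 20.3, 74.1 and 122 in Las_ML and 73.3, 7.38 and 68.6 in Las_SL, a spread of more than 5 times within each group. LOC111899790, of glycoside hydrolase family 3, had 94, 15.9 and 9.4 FPKM in Las_WL, 8.43, 18.8 and 31.1 in Las_ML and 25.4, 8.43 and 22.3 in Las_SL. In both, the highest value was that of Las_WL library 1. LOC111914184, described as the chloroplast galactolipid enzyme SFR2, had 33.8, 26 and 32.8 FPKM in Las_SL, against 28, 46.2 and 40.5 in Las_WL (log2 fold change -0.28 ± 0.21, limma adjusted p = 0.466). Summed FPKM of the class was 452, 311 and 205 in Las_WL, 177, 264 and 323 in Las_ML and 253, 163 and 249 in Las_SL.

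Among the 61 measured rows placed by number alone, 1 was called in Las_SL vs. Las_WL, as lower, beside 0.199% of all genes. LOC111900886 carries a peroxidase number and is described as a chromo domain protein, and it fell to 0.59, 0.065 and 0.51 FPKM in Las_SL, against 1.75, 2.21 and 2.17 in Las_WL (log2 fold change -1.15 ± 0.24, limma adjusted p = 0.0389). The Las_ML libraries had 3.45, 1.59 and 2.21 FPKM, so Las_SL was the group apart. Its values were near the filter on low levels, and nothing in its description ties it to lignin.

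Group means ascended from low through medium to high light in 31 of 78 measured core genes (39.7%) and descended in that order in 19 (24.4%), beside 40.3% and 19.1% of all genes tested. In the peroxidases 7 of 23 ascended and 3 descended, and in the beta-glucosidases 3 of 20 ascended and 10 descended. Summed over the core, FPKM was 1664, 2249 and 2634 in Las_WL, 1650, 1646 and 1978 in Las_ML and 1697, 1822 and 1748 in Las_SL. Without LOC111893052 the core summed to 1257, 1298 and 1545 in Las_WL, 1285, 1281 and 1424 in Las_ML and 1384, 1559 and 1435 in Las_SL, and the 3 groups overlapped.

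Of the genes around the pathway, 1 of those left out by the rule was called. The 73 left-out rows (35 measured) had 1 gene called higher and 0 lower in Las_SL vs. Las_WL, beside the 2.73% and 0.199% of all genes given above. In limma at an unadjusted p below 0.05 and the same fold limit, 2 were higher and 3 lower (5.47% and 0.807% of all genes). Without overlap of the groups, 3 had Las_SL above and 6 below (27.2% and 2.89% of all genes). Their median log2 fold change was -0.14, beside 0.18 for all genes tested. The called gene was LOC111901312 of the HCT family, which transfers hydroxycinnamoyl groups to shikimate, and it was chosen after its values were seen. It had 0.54, 1.03 and 1.01 FPKM in Las_WL, 2.32, 2.44 and 3.47 in Las_ML and 2.51, 6.13 and 5.03 in Las_SL. All Las_WL libraries lay below the rest, and the other groups overlapped. Its log2 fold change of Las_SL over Las_WL was 1.53 ± 0.28 (limma adjusted p = 0.0318; 0.0252 to 0.129 over the alternatives). Of 60 measured genes of aromatic amino acid synthesis, which supplies phenylalanine, none was called in Las_SL vs. Las_WL, and their median log2 fold change was -0.04. At an unadjusted p below 0.05 and the same fold limit, 0 were higher and 2 lower (5.47% and 0.807% of all genes). At the adjusted p alone, 3 were higher and 0 lower (5.67% and 0.264% of all genes). The groups did not overlap for 8 with Las_SL above and 5 with Las_SL below (27.2% and 2.89% of all genes). Of the laccases, the other oxidases of monolignols, 1 of 4 was measured, and of the dirigent proteins, which guide the coupling of monolignols into lignans, 2 of 4 were. None of these was called in limma, and none passed at the unadjusted p in that comparison.

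The back-spliced reads of the same libraries, which come from circular RNAs, gave a further readout of these genes. Of 1650 circular RNAs in the table, 12 came from 11 member genes, 8 of them from genes with a named enzyme. They had 21 of the 6836 back-spliced reads, with 11 in the Las_WL libraries, 10 in Las_ML and 0 in Las_SL, where a count of 0 allows up to 3 reads over the group. Only 2 of the 12 were seen in more than 1 library. The parents included the CAD gene LOC111915590, the beta-glucosidases LOC111899790, LOC111907753 and LOC111914184 and the SCPL acyltransferases LOC111919902, LOC111919870 and LOC111920702, with 1 or 2 reads for each circular RNA. All back-spliced reads, those of every gene, numbered 1660 in Las_WL, 2646 in Las_ML and 2530 in Las_SL, and 398 to 1036 per library. The reads of members were 7, 4 and 0 in the Las_WL libraries, 3, 3 and 4 in Las_ML and 0 in each Las_SL library, and no test of a difference was made.

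The calls changed when single libraries were left out. A Las_ML library enters Las_SL vs. Las_WL only through the estimate of spread, so leaving it out does not change these fold changes. In Las_SL vs. Las_WL the count of members called higher was 0 without Las_ML library 2, Las_ML library 3, Las_WL library 2 or any 1 of the Las_SL libraries, 2 without Las_ML library 1, 6 without Las_WL library 1 and 9 without Las_WL library 3, and the count called lower ran from 0 to 5. Over all genes the number called higher ran from 0 to 914 under the same omissions, beside 715 with all libraries. The number called lower ran from 0 to 233, beside 52 with all libraries. Both the 5 members and the 233 genes were reached without Las_WL library 1.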

How the data were processed

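Leaf RNA of 9 libraries, 3 for each of Las_WL, Las_ML and Las_SL, was analysed from the deposited tables. Gene levels were deposited by the authors as FPKM, for which the study's text names Cutadapt, TopHat2, the build Lsat_Salinas_v7 and edgeR, after rRNA depletion and RNase R digestion. The labels give poly(A) selection instead, and the submitters' processing notes list Bowtie 0.12.2, HISAT2 2.0, StringTie 1.3.0 and a mouse build, so the route to the FPKM values is not settled. Digestion with RNase R would remove linear RNA, and whether it bears on these levels was not tested. Counts of back-spliced reads were deposited by the authors without normalization, and a 0 allows up to 3 reads by counting error only. Their 9 SRPBM columns were not used. Read depth per gene is not known: of 328 genes with low FPKM in 2 Las_WL libraries, 7 shared the commonest ratio, so whole reads could not be recovered.

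Genes were tested with limma 3.58.1 (trend) in R 4.3.3 on log2(FPKM + 1), which understates the change of low genes. Fitted were 26145 genes, those whose FPKM averaged 0.5 or more over the 9 libraries, and p-values were adjusted by Benjamini-Hochberg over all of them. The method was tested on simulated data. Python 3.11.15, pandas 2.3.3 and matplotlib 3.10.9 made sums and plots. Of 329 member loci, 303 matched the RefSeq gene table of Lsat_Salinas_v11, which was used only for gene order. The replicates were separate leaf samples, per the study's methods.

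Members were sorted by KEGG orthology number and by enzyme words in the description or gene ontology terms. The wording had been set without the number, which was added once the table was seen. Genes named are the most abundant of each core class, the 3 most abundant peroxidases and beta-glucosidases, and called genes (up to 10 core, 5 peroxidases and 5 beta-glucosidases per comparison by smallest p). Others are said to be chosen after their values were seen, as were LOC111900886, the other PAL genes and the C4H genes. Members and lists were chosen with earlier results of these data known. The following were tried in their place: a pseudocount of 0.1, a filter at a mean FPKM of 5 or none, quantile normalization, scaling on all but the 10 most abundant genes, the unadjusted p, the adjusted p alone, only the libraries compared, a replicate block and each library left out. Leaving out Las_WL library 1 and Las_SL library 2 together was chosen after seeing the data. A core class was kept in the counts and sums of the core and is not reported here. No sequence was used here, and promoter motifs were not searched.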

Additional observations from a re-analysis of the deposited data

Results flagged for a closer look

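Summed over all 9 libraries, a circular RNA of a member gene had more reads than a count of 0 allows, though no group had more than 3. The comparisons of genes do not use these data. circRNA1196 of LOC111915286, a row with a peroxidase number and no peroxidase in its description, had 5 back-spliced reads, 3 in Las_WL library 1 and 2 in Las_ML library 3. All other circular RNAs of member genes had 1 or 2 reads.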

How the results depend on the processing

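In Las_SL vs. Las_WL, where 4 members were called higher and 1 lower, the counts depended on the settings. Members called higher were 2 without a filter, 0 after quantile normalization, 2 with rescaled FPKM, 13 at the unadjusted p, 9 at the adjusted p alone, 0 when only the compared libraries were fitted and 0 with a replicate block, and 0 to 9 with each library left out. Members called lower were 0 after quantile normalization, 0 with rescaled FPKM, 8 at the unadjusted p, 0 when only the compared libraries were fitted, 0 with a replicate block, 0 to 5 with each library left out, and 5 without Las_WL library 1 and Las_SL library 2 together. Over all genes, 715 were called higher, 5 after quantile normalization, 298 with rescaled FPKM, 1 when only the compared libraries were fitted and 0 with the block. Those called lower were 52, 1 after quantile normalization, 26 with rescaled FPKM, and 0 with either the compared libraries alone or the block. The count called lower was 149 without Las_WL library 1 and Las_SL library 2 together. Of all genes, 5.47% were higher and 0.807% lower at the unadjusted p, and 5.67% and 0.264% at the adjusted p alone. In Las_SL vs. Las_ML and Las_WL vs. Las_ML, members were called only at the unadjusted p (3 higher and 5 lower, and 2 higher and 9 lower). Whether the replicate numbers pair the libraries is not settled. Deviations from group means of same-numbered libraries correlated between -0.519 and 0.561, with only 3 libraries per group. The cause of these changes was not tested.

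Without its most abundant member, the summed FPKM of the core averaged 1367 (Las_WL), 1330 (Las_ML) and 1459 (Las_SL), and that of the peroxidases 236.5 (Las_WL), 301 (Las_ML) and 250.3 (Las_SL). Some alternatives could not turn the fold change of a single gene, since the unadjusted p and the adjusted p alone use the main fit. In Las_SL vs. Las_WL the same holds for the filters, fitting only the compared libraries, the replicate block and leaving out a Las_ML library. Of 51 fold changes of single genes, which leave out LOC111897462 and LOC111910234, 44 kept their direction under every alternative that gave a value. The other 7 were uncalled values of Las_SL over Las_WL. With each library left out, their log2 fold changes ran from -0.14 to 0.62 for LOC111894093, -0.21 to 0.95 for LOC111891086, -0.26 to 0.52 for LOC111896402, -1.16 to 0.44 for LOC111899790 and -0.22 to 0.040 for LOC111920700, with the turned end without Las_WL library 1, or for LOC111920700 without Las_WL library 3. LOC111896402 also turned without Las_SL library 2 or Las_WL library 3, and to -0.0874 after quantile normalization. Without Las_WL library 1 and Las_SL library 2 together, values were -0.12 for LOC111894093, -0.16 for LOC111895133, -0.35 for LOC111891086, -0.43 for LOC111896402, 0.20 for the row of LOC111915120 and LOC111915136 and 0.90 for LOC111899790. The calls of LOC111902226 and LOC111904547 held under 10 of 19 alternatives each, those of LOC111877184 under 7, LOC111897919 under 6, and that of LOC111900886 under 7 of 18. That of LOC111901312 held under 9 of 18. These counts include the unadjusted p and the adjusted p alone, which every called gene passes by definition.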
